A study of Homo sapiens with 6 samples.

Results

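MGMT and 9 genes of base excision repair and related alkylation repair were examined in U251, a long-established line of human glioblastoma cells, in view of the response of such cells to the alkylating drug temozolomide. The 10 genes were taken by name, as MGMT, MPG, ALKBH2, ALKBH3, APEX1, POLB, XRCC1, LIG3, PARP1 and PARP2. All 10 were found, among 20330 Ensembl genes listed in every table. The libraries formed 2 groups, 3 of control U251 cells and 3 of U251 cells with stable overexpression of the long noncoding RNA XLOC013218. No label mentions exposure to temozolomide. What the control cells carry, and whether the overexpressing cells are 1 clone or a pool, are details not given in the sources used here. Nor do the labels say that replicates came from separate cultures, although the design text calls them independent biological replicates. The p-values therefore set the difference between groups against the spread among these 6 libraries within their groups, whatever that spread reflects.

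Temozolomide methylates DNA at several positions. O6-methylguanine, the most toxic of these lesions, is repaired in 1 step by MGMT, which moves the methyl group onto its own active-site cysteine and is then destroyed. The more frequent N-methylated purines go to base excision repair. There a glycosylase removes the base, an endonuclease opens the strand, a polymerase fills the gap and a ligase seals it, while poly(ADP-ribose) polymerases mark the break and draw in the scaffold protein XRCC1. In glioblastoma MGMT is known for being silenced by methylation of its CpG-rich promoter, and tumours that lack it respond better to the drug.

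The promoters of the gene listed at 0 and of the most abundant gene of the set are shown because these genes stood at opposite ends of the measured levels. Each window runs from 250 bases before to 50 bases after the transcription start, 5′ to 3′ on the gene's strand, from RefSeq on GRCh38.p14. MGMT lies on the plus strand at chr10:129466991-129467290 and PARP1 on the minus strand at chr1:226408044-226408343. Capitals mark GGGCGG or its reverse complement CCGCCC, the core of the GC box that SP1-family transcription factors bind.
MGMT: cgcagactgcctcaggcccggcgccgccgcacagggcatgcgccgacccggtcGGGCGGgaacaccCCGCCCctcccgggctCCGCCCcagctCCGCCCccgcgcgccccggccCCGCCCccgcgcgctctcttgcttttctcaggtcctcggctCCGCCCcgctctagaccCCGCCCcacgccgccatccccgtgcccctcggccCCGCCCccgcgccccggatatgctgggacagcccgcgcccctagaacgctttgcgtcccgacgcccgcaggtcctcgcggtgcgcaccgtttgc
PARP1: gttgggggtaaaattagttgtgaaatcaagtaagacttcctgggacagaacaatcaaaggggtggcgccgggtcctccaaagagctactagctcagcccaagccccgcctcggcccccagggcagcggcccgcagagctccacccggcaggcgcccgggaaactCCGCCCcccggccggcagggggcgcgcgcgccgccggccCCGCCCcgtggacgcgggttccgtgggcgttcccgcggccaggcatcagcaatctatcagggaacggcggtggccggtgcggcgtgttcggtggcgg

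The MGMT window held 8 GC box cores, 1 as GGGCGG and 7 as CCGCCC, and that of PARP1 held 2. At least 8 cores were found in 0.824% of the 27305 RefSeq promoters of the same length, and at least 1 in 44.6% of them. Promoters were matched for 9 of the 10 genes, all but POLB, and 7 of these 9 held a core. MPG had 3, ALKBH2, XRCC1, LIG3 and PARP2 had 1 each, and ALKBH3 and APEX1 had 0. The MGMT window also held 45 CpG dinucleotides, more than 96.6% of all promoters, and each GC box core itself holds 1 CpG. The other 8 windows held between 19 CpG (APEX1) and 34 (MPG), against a median of 14 over all promoters. These are letters of the reference sequence: neither DNA methylation nor factor binding was measured in these libraries.

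**Figure D1:**
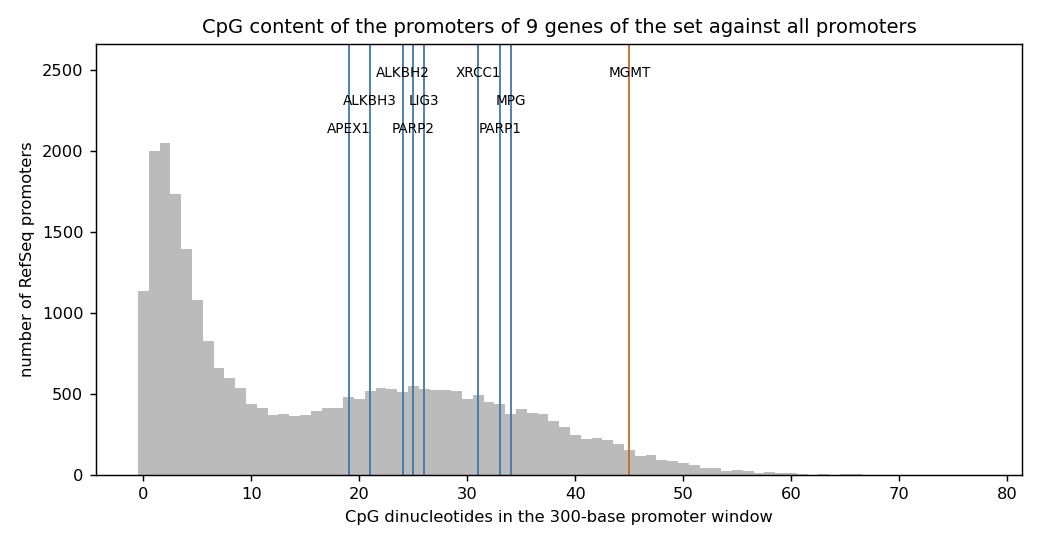
Number of CpG dinucleotides in the 300-base promoter window (x axis) against the number of RefSeq promoters with that count (y axis, grey bars), with a line for each of 9 genes. MGMT (orange), at 45, stands to the right of the other 8 (blue), which lie between 19 and 34.

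MGMT transcripts were not seen in either group. MGMT (ENSG00000170430, chromosome 10) was listed at 0 FPKM in control replicates 1, 2 and 3 and at 0 FPKM in overexpression replicates 1, 2 and 3. FPKM is the number of fragments scaled by transcript length and library size, and the smallest value above 0 in any table was 0.01. With no value above 0 there is no fold change and no test for MGMT. A listed 0 was common, with 2229 of 19010 protein-coding genes, or 11.7%, at 0 in every library. It was not seen among genes that every cell uses, a set of ribosomal, proteasome, splicing, RNA polymerase and metabolic genes. Of its 91 listed members (all but PSMB3), 0 were at 0 in any library, and the lowest, TBP, averaged 13.1 FPKM. All of these lay well above 0, so they do not show how a gene of low level would be listed. MGMT was also the only one of 49 repair genes considered here that was at 0 in every library, and the lowest of the other 48, APLF, averaged 1.05 FPKM.

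The genes beside MGMT on its chromosome were partly at 0 and partly well above it. Of the 5 nearest protein-coding genes on each side in GENCODE 29, 9 were listed (all but C10orf143) and 4 of these, EBF3, NPS, FOXI2 and CLRN3, were at 0 in all 6 libraries. MKI67, the proliferation marker next to MGMT on the side of lower coordinates, was at 46.7, 46.2 and 53.3 FPKM in control and at 46.6, 51.6 and 52.9 FPKM in overexpressing cells. GLRX3, a glutaredoxin on the other side, averaged 61.6 ± 2.53 and 62.5 ± 2.46 FPKM in the control and overexpression groups (SD, n = 3 per group). PTPRE, a tyrosine phosphatase, ranged from 0.55 to 1.98 FPKM, TCERG1L did not exceed 0.1 FPKM, and PPP2R2D averaged 14.8 ± 0.276 and 12.9 ± 0.951 FPKM. The 0 of MGMT was shared by some of its neighbours and not by others. Over all listed protein-coding genes, 11.7% were at 0 in every library. Whether the levels of MGMT and its neighbours are linked was not tested.

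**Figure D2:**
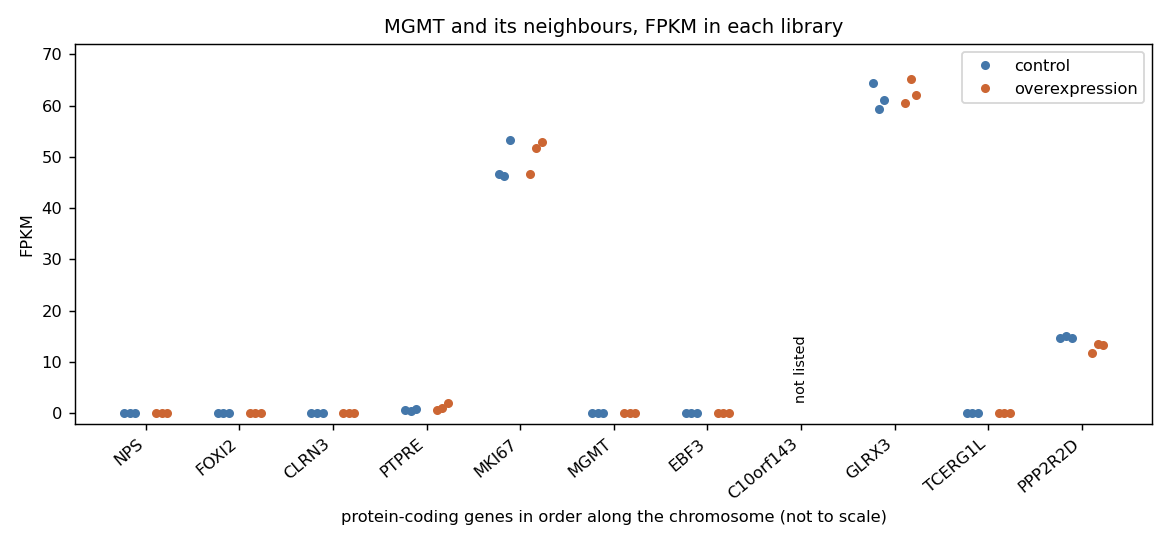
FPKM (y axis) of MGMT and of the 5 nearest protein-coding genes on each side, in order along the chromosome (x axis, not to scale), 1 point per library. MGMT and EBF3 lie at 0 in all 6 libraries, between MKI67 (46.2 to 53.3 FPKM) and GLRX3 (59.4 to 65.2 FPKM).

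The other 9 genes were all expressed and all tested. In order of their mean over the 6 libraries they were PARP1 (161 FPKM), APEX1 (123), MPG (60.6), XRCC1 (39.9), POLB (39.4), PARP2 (24.8), ALKBH2 (22.1), LIG3 (18.7) and ALKBH3 (16.1), on a scale that accounts for length. PARP1, APEX1 and MPG were separated from their neighbours in this order in every library. XRCC1 and POLB overlapped in their ranges, as did each neighbouring pair from PARP2 to ALKBH3, so those positions are not distinct beyond the spread between libraries.

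None of the 9 passed the test between groups. The groups were compared with limma on log2(FPKM + 1) over 11731 genes, with a Benjamini-Hochberg adjusted p under 0.05 as the threshold, and 61 genes or 0.52% of those tested passed. Of the 9, 0 rose and 0 fell by that threshold. At an unadjusted limma p under 0.05, which 12.7% of all tested genes reached, there were 2, PARP1 and POLB. In these 2 genes all overexpression values lay below all control values, a pattern found in 10.1% of all tested genes. The opposite pattern, with overexpression values all above control, was found in 8.81% of tested genes and in 0 of the 9. The median log2 fold change of the 9 was 0.003, against -0.0008 over all tested genes, with 4 below 0 and 5 above.

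**Figure D3:**
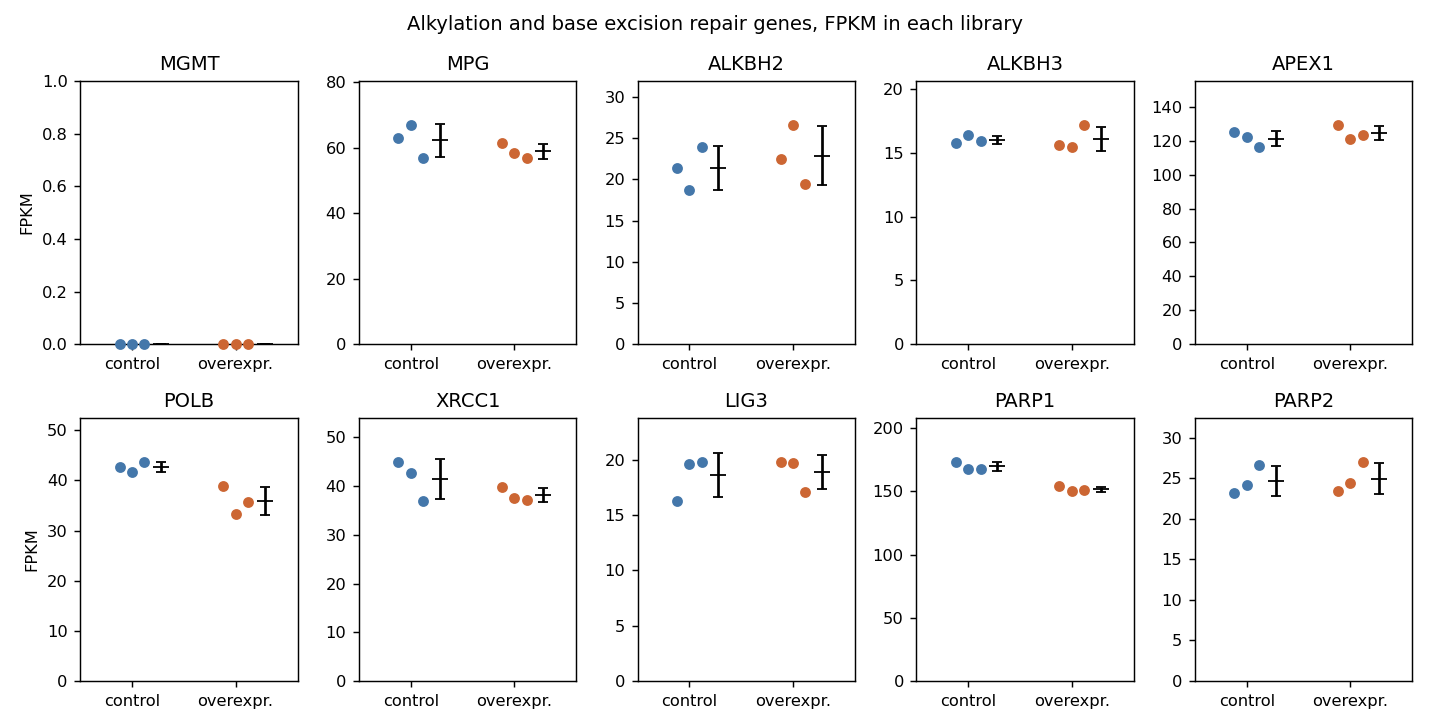
FPKM (y axis, from 0) of the 10 genes in each control (blue) and overexpression (orange) library, with the mean and SD of each group of 3 in black. MGMT is at 0 throughout, POLB and PARP1 show no overlap between the groups, and the groups overlap in the other 7 genes.

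PARP1 and PARP2 encode the poly(ADP-ribose) polymerases that sense strand breaks. PARP1 (ENSG00000143799, chromosome 1) was at 173.6, 167.9 and 167.9 FPKM in control replicates 1 to 3 and at 153.9, 150.2 and 151.0 FPKM in overexpression replicates 1 to 3. All 3 overexpression libraries were lower, and the 3 lay closer to each other than to any control library. The means were 169.8 ± 3.30 and 151.7 ± 1.97 FPKM (SD, n = 3 per group), a difference of -10.6%. The log2 fold change was -0.16 (SE 0.04, 95% interval -0.26 to -0.07), with a limma adjusted p of 0.152, so the difference was larger than the spread within groups but did not pass over all genes. It ranked 279 of 11731 by p. PARP2 (ENSG00000129484, chromosome 14), the less abundant relative, was at 23.2, 24.1 and 26.7 FPKM in control and at 23.5, 24.4 and 27.1 FPKM in overexpressing cells. Its groups overlapped, with a log2 fold change of 0.02 (95% interval -0.16 to 0.19, limma adjusted p = 0.95). PARP1 exceeded PARP2 in every library, by 6.29 to 7.49 times in control and 5.58 to 6.56 times in overexpressing cells.

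POLB (ENSG00000070501, chromosome 8), DNA polymerase beta, which fills the gap and trims the sugar remnant, was at 42.7, 41.8 and 43.8 FPKM in control and at 38.9, 33.3 and 35.8 FPKM in overexpressing cells. The lowest control value lay above the highest overexpression value, and overexpression replicate 2 was the lowest of all. The means were 42.8 ± 1.01 and 35.98 ± 2.80 FPKM (SD, n = 3 per group), a difference of -15.8%. Its log2 fold change of -0.24 (SE 0.06, 95% interval -0.39 to -0.10) was the largest in size of the 9, and the limma adjusted p was 0.157. An exact two-sided permutation test of the means gave p = 0.1 for PARP1 and for POLB, the smallest p that 3 libraries against 3 can give.

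XRCC1 (ENSG00000073050, chromosome 19), the scaffold that holds polymerase beta and DNA ligase III at the break, was at 45.1, 42.6 and 37.0 FPKM in control and at 39.8, 37.5 and 37.2 FPKM in overexpressing cells. Control replicate 3 was the lowest of all 6, so the groups overlapped, and the log2 fold change was -0.12 (95% interval -0.29 to 0.05, limma adjusted p = 0.573). LIG3 (ENSG00000005156, chromosome 17), the ligase that seals the nick, was at 16.3, 19.6 and 19.8 FPKM in control and at 19.8, 19.7 and 17.1 FPKM in overexpressing cells. Control replicate 1 and overexpression replicate 3 were the low ones, and the log2 fold change was 0.02 (95% interval -0.19 to 0.24, limma adjusted p = 0.941).

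MPG (ENSG00000103152, chromosome 16), the glycosylase that removes N3-methyladenine and N7-methylguanine, was at 62.98, 67.0 and 56.8 FPKM in control and at 61.5, 58.5 and 57.1 FPKM in overexpressing cells. Its groups overlapped, with a log2 fold change of -0.07 (95% interval -0.22 to 0.08, limma adjusted p = 0.702). APEX1 (ENSG00000100823, chromosome 14), the main abasic-site endonuclease, was at 125.1, 122.2 and 116.4 FPKM in control and at 129.3, 121.2 and 123.2 FPKM in overexpressing cells. The log2 fold change of APEX1 was 0.04 (95% interval -0.07 to 0.15, limma adjusted p = 0.799). The APEX1 level was 2.66 to 2.93 times that of POLB in control libraries and 3.33 to 3.64 times in overexpression libraries. Of 7 ratios between genes of the set, all chosen after the genes' values were seen and none tested, 3 did not overlap between groups. Besides APEX1 to POLB these were POLB to LIG3, at 2.13 to 2.62 in control and 1.69 to 2.09 in overexpression libraries, and MPG to APEX1, at 0.488 to 0.548 and 0.463 to 0.482. APEX1 to POLB and POLB to LIG3 share POLB, whose own groups did not overlap. MPG to APEX1 in turn shares APEX1 with APEX1 to POLB, so the 3 ratios are not separate observations. How often ratios of other gene pairs lack overlap was not computed.

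ALKBH2 and ALKBH3 encode dioxygenases that reverse some N-methyl lesions directly, ALKBH2 mainly in double-stranded DNA and ALKBH3 in single-stranded DNA. ALKBH2 (ENSG00000189046, chromosome 12) was at 21.4, 18.7 and 23.99 FPKM in control and at 22.5, 26.6 and 19.5 FPKM in overexpressing cells. It varied most between libraries of a group, with a coefficient of variation of 12.3% in control and 15.7% in overexpressing cells. Its log2 fold change of 0.09 has a 95% interval from -0.18 to 0.36 (limma adjusted p = 0.818), the widest of the 9. ALKBH3 (ENSG00000166199, chromosome 11) was at 15.8, 16.4 and 15.97 FPKM in control and at 15.6, 15.5 and 17.2 FPKM in overexpressing cells. ALKBH3 had the log2 fold change nearest 0, at 0.003 (95% interval -0.15 to 0.16, limma adjusted p = 0.989).

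Several of these genes share exonic sequence with others in GENCODE 29, and the sources used here do not say whether the deposited values were counted by strand. LIG3 shares 29.1% of its exonic bases with RFFL on the opposite strand, at 16.3 FPKM, and MPG shares 27.3% with NPRL3, also opposite, at 17.8 FPKM. APEX1 shares 2.86% with PIP4P1, and XRCC1 shares 15.5% with the antisense gene L34079.3 and 6.48% with L34079.1 on its own strand, which was listed at 0. MGMT shares 8.04% with the antisense gene AL157832.2. The levels of LIG3 and MPG are the most uncertain for this reason, while PARP1, POLB and ALKBH2 share none.

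Another 39 genes of base excision repair and related repair, listed by role, were all tested. None passed, with 0 higher and 0 lower in limma, where 0.52% of all tested genes passed. At an unadjusted limma p under 0.05 there were 3, against the 12.7% of all tested genes. The groups did not overlap in 8 of the 39, 6 higher and 2 lower, where 8.81% of all tested genes were higher and 10.1% lower without overlap. The median log2 fold change of the 39 was 0.03, against -0.0008 over all tested genes.

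Of the 10 DNA glycosylases other than MPG, 6 had a log2 fold change below 0 and 4 above. UNG, which removes uracil and was the most abundant of them, was at 55.0, 50.9 and 50.1 FPKM in control and at 43.6, 49.9 and 47.5 FPKM in overexpressing cells (log2 fold change -0.14, limma adjusted p = 0.395). NTHL1, which removes oxidised pyrimidines, was at 16.5, 16.99 and 16.95 FPKM in control and at 19.1, 21.3 and 18.3 FPKM in overexpressing cells (log2 fold change 0.20, limma adjusted p = 0.283). The groups did not overlap in either gene, but they lay in opposite directions. SMUG1, another uracil glycosylase, averaged 26.0 ± 3.74 and 25.7 ± 2.40 FPKM. ALKBH1, a relative of ALKBH2 and ALKBH3, averaged 5.98 ± 0.289 and 6.80 ± 0.291 FPKM, without overlap (log2 fold change 0.16, limma adjusted p = 0.497).

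Genes of end processing, 6 in the list, were without a call. APTX, which removes AMP from failed ligations, averaged 49.2 ± 2.64 and 47.9 ± 3.51 FPKM, and TDP2, which releases topoisomerase II from DNA ends, 34.5 ± 0.791 and 36.9 ± 1.38 FPKM. The 5 genes of poly(ADP-ribose) turnover were likewise without a call. HPF1, the partner that directs PARP1 and PARP2 to serine residues, averaged 20.8 ± 3.05 and 23.3 ± 3.53 FPKM. ADPRS, the hydrolase that removes serine-linked ADP-ribose, averaged 36.5 ± 0.636 and 37.98 ± 1.76 FPKM, and CHD1L, a remodeller recruited by poly(ADP-ribose), 28.8 ± 0.692 and 30.02 ± 0.62 FPKM.

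The long-patch list held 17 genes, most of them also used in DNA replication, with 6 log2 fold changes below 0 and 11 above. POLD4, the smallest subunit of DNA polymerase delta, was at 38.0, 37.9 and 36.7 FPKM in control and at 34.2, 32.0 and 31.1 FPKM in overexpressing cells. Its log2 fold change was -0.21 (SE 0.06, 95% interval -0.33 to -0.08, limma adjusted p = 0.166), close in size to that of POLB. LIG1, the replicative ligase that can stand in for LIG3, was at 32.4, 29.7 and 31.4 FPKM in control and at 34.5, 33.9 and 35.8 FPKM in overexpressing cells (log2 fold change 0.15, limma adjusted p = 0.305). PCNA, the sliding clamp, averaged 169.1 ± 5.98 and 166.7 ± 11.8 FPKM, and POLD2, another polymerase delta subunit, 161.3 ± 11.7 and 163.4 ± 11.4 FPKM. POLE3, RFC2 and RFC4, named here after their values were seen, were the other genes of this branch with all overexpression values above control, by log2 fold changes of 0.10, 0.10 and 0.11.

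**Figure D4:**
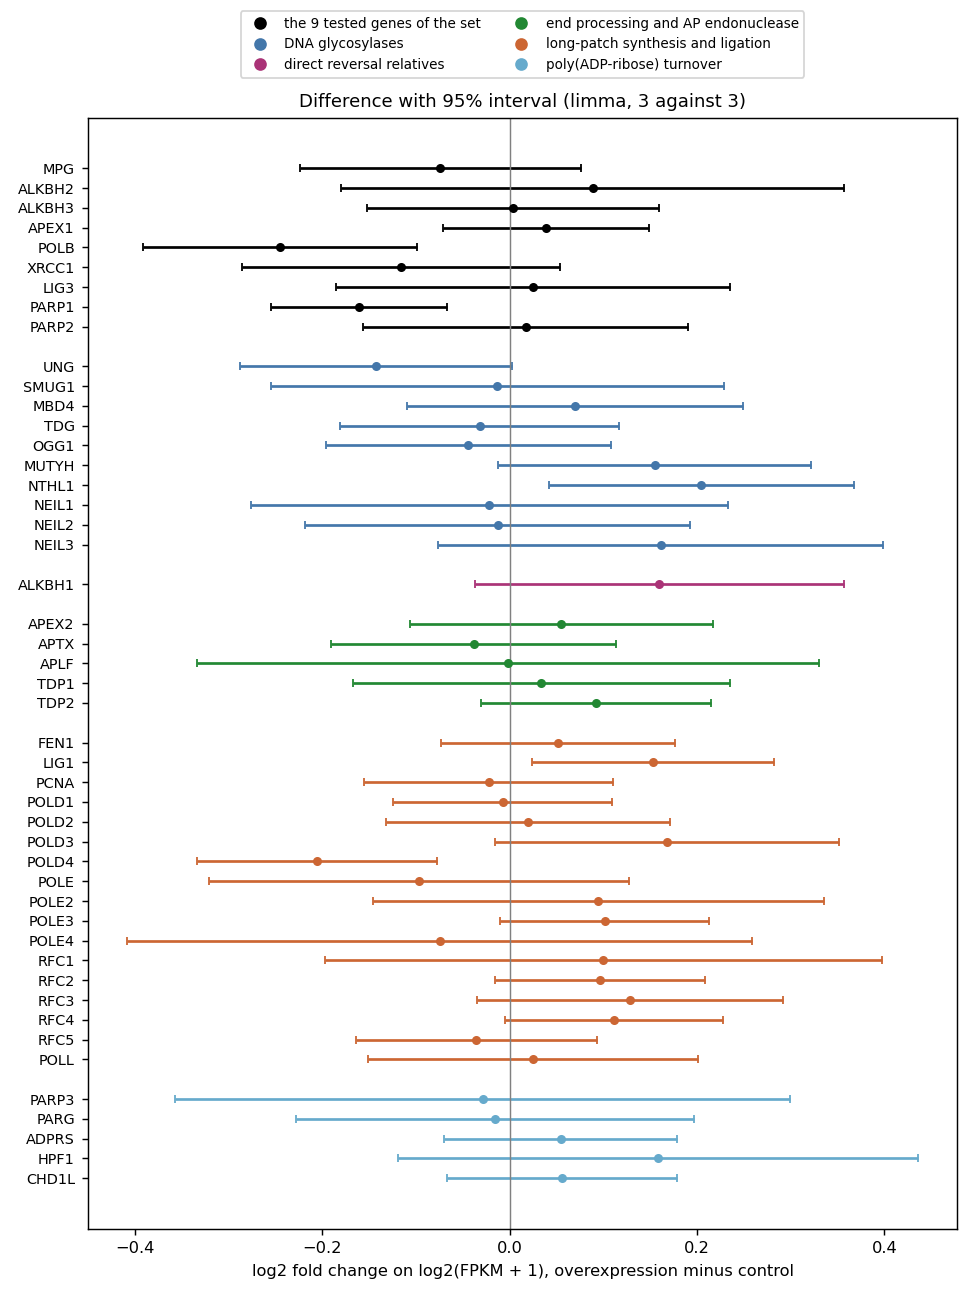
Log2 fold change of tested repair genes (x axis, overexpression minus control on log2(FPKM + 1)) with its 95% interval from limma (bars), grouped by role. The intervals of PARP1, POLB, NTHL1, LIG1 and POLD4 leave out 0 before adjustment, and none of the genes plotted passed after adjustment over all 11731.

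The genes with values most like those of PARP1 across the 6 libraries were UGCG, IRF2BPL and MBD6. Likeness was the root mean square distance between log2(FPKM + 1) values centred on each gene's own mean, and came to 0.018, 0.02 and 0.022 log2 units, where PARP1 itself deviated from its mean by 0.083. UGCG, which makes glucosylceramide, averaged 17.6 ± 0.423 and 15.6 ± 0.397 FPKM, with a log2 fold change of -0.17. IRF2BPL averaged 31.4 ± 0.51 and 28.2 ± 0.272 FPKM, and MBD6 20.0 ± 0.52 and 17.99 ± 0.673 FPKM. None of the 3 passed (limma adjusted p = 0.313, 0.28 and 0.386). As they were picked for their likeness to PARP1, a similar difference between groups follows from the choice.

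Facts of the libraries that touch these values were as follows. Summed FPKM lay between 598683 and 621922 per library, and between 22.6% and 23.3% of Ensembl genes were at 0 in control libraries against 21.5% to 21.9% in overexpression libraries. The tables carry no read totals, so no counting error can be given. Of 12 glioma and astrocyte markers, VIM, CD44 and NES were abundant and OLIG2, AQP4 and CHI3L1 were near or at 0. SOX2 averaged 116.4 ± 2.44 and 101.7 ± 3.37 FPKM, all 3 overexpression values below control, with a log2 fold change of -0.19 (limma adjusted p = 0.12). GFAP averaged 41.6 ± 6.06 and 21.6 ± 7.91 FPKM without overlap and did not pass (limma adjusted p = 0.107). Of 7 leukocyte markers, CD3E was at 0 in all libraries, while the summed level was 8.34 to 9.53 FPKM in control libraries and 11.7 to 13.4 FPKM in the others, most of it CD68. PTPRC ranged from 0.13 to 0.17 FPKM in control libraries and from 0.39 to 0.65 FPKM in the others. Per library, the sum of 4 listed endothelial markers came to 4.41 to 5.61 FPKM, 4 epithelial markers to at most 1 FPKM, and 6 neuron and oligodendrocyte markers to 2.56 to 3.68 FPKM. The part of these markers in the differences of PARP1 and POLB was not tested. In bulk RNA, fewer cells that express a gene and less RNA per cell cannot be told apart.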

How the data were processed

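RNA from 6 libraries was compared, 3 per group, with groups and replicate numbers taken from the sample titles. The authors deposited 1 table of FPKM values per library, rounded to 2 decimals. The submitters' processing notes name hg18 as the build and, as tools, edgeR, RSEM 1.3.1, Cufflinks 2.2.1, Bowtie and TopHat. Which tool gave the FPKM values was not given in the sources used here. Libraries were stranded and poly(A)-selected per the labels' protocols, while the design text describes cytoplasmic RNA without that selection. In 5 tables the last line was incomplete and was not read.

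Symbols came from a table of gene names (19447 of 20330 identifiers matched), and neighbours, exon overlaps and chromosomes from GENCODE 29 on GRCh38. That build differs from hg18, so coordinates are given only for the RefSeq promoters. Genes present in every table and averaging 1 FPKM or more over the 6 libraries were tested with limma 3.58.1 (limma-trend, R 4.3.3, two-sided, Benjamini-Hochberg) on log2(FPKM + 1). Fold changes on this scale understate those of low genes. The test was checked on simulated data with planted changes, each larger than any difference of the tested genes of the set. That check therefore does not show how often differences as small as theirs would pass. Other values were computed with Python 3.11.15, pandas 2.3.3 and scipy 1.17.1.

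The 10 genes and the lists were chosen with earlier results of these data known. Beyond the 10, the text names per role list up to 2 genes with the highest mean and up to 2 with the lowest p, the neighbours of MGMT, and the 3 genes most like the tested gene of lowest p. Some genes fixed by this rule or in the lists are not reported here. Alternatives changed the pseudocount (0.1), the filter, the scaling, the variance model, the library weights, the replicate block and the libraries used.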

Additional observations from a re-analysis of the deposited data

How the results depend on the processing

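No gene of the set and none of the other 39 repair genes passed under any of the 13 alternatives. For the 9 tested genes of the set these were 117 fits, all of them reusing the same 6 libraries. In several alternatives only 1 or 2 of all tested genes passed, so a count of 0 says little there. PARP1 kept its direction in all 13, with log2 fold changes from -0.18 to -0.15 and limma adjusted p from 0.0732 (array weights) to 0.396. POLB did so too, from -0.30 to -0.19, with limma adjusted p from 0.079 (array weights) to 0.367, the smallest difference being without overexpression replicate 2. MPG, XRCC1 and APEX1 also kept their sign, whereas ALKBH2, ALKBH3, LIG3 and PARP2 changed sign in 1, 4, 4 and 2 alternatives.

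The count over all genes, which sets the background, moved more. It was 61, and became 1 when low genes were not filtered, 1 when limma was fitted without its trend, 197 with array weights and 19 with the replicate block. Leaving out 1 library in turn gave between 1 and 60: 1, 1 and 2 without control replicates 1, 2 and 3, and 14, 60 and 23 without overexpression replicates 1, 2 and 3. Rescaling to TPM kept 61 but changed the split from 37 higher and 24 lower to 30 and 31. Under the replicate block 0 genes of the set passed. No shared deviation of same-numbered libraries was visible: their deviations correlated at -0.04, -0.058 and 0.045 over 11731 genes. The labels do not say whether same-numbered libraries were prepared together. The tables used here carry no read totals, so what depth limits could not be given.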
